A study of Homo sapiens with 30 samples.

Results

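Transcription along gene bodies was measured by PRO-seq 4 h after the compound dTAG47 was added to cells whose MYC protein can be degraded on demand. The measurement covers 4 of the 30 samples of the series, 2 libraries with dTAG47 and 2 with its solvent DMSO. Every row of the deposited count table, which pairs a gene with a transcript, was a member. The table has 20582 rows for 20367 gene symbols, 2894 rows held no gene body read in any library, and 13397 rows passed the filter on low counts and were tested.

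All 4 libraries came from DTMYC G401 cells. G401 is an established line from a malignant rhabdoid tumour of the kidney. In the DTMYC derivative, CRISPR-Cas9 editing had eliminated native MYC, and a lentiviral construct supplied MYC carrying an HA tag and the FKBP12F36V degradation module at its N terminus. The dTAG47 libraries were from cells given 500 nM of the compound for 4 h, and the DMSO libraries were from cells of the same line given solvent for the same time. dTAG47 joins the FKBP12F36V module to the cell's ubiquitin machinery, so that the tagged protein is destroyed. The comparison therefore asks which genes change their transcription early after MYC is degraded. The sources used here do not say how many clones make up the line or whether replicates were separate cultures. No PRO-seq library of parental G401 cells was used here, so effects of dTAG47 apart from MYC were not tested. The p-values cover only the spread between these libraries.

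MYC is a transcription factor that pairs with MAX and binds the E-box CACGTG and related sequences near gene starts. It is best known for sustaining genes of ribosome production, protein synthesis, nucleotide supply and mitochondrial biogenesis in growing cells. PRO-seq labels RNA still held by engaged RNA polymerase, so a gene body count follows polymerases elongating through the gene rather than the amount of stable mRNA. Gene body totals were 21513001 and 18209879 reads in the dTAG47 libraries and 23256313 and 19389283 in the DMSO libraries. Levels are given in CPM, read counts scaled to the normalised library size, with the dTAG47 libraries numbered 1 and 2 before the DMSO libraries numbered 1 and 2. Since each library was scaled to its own total, a change shared by all genes could not be seen.

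The row for SMARCB1, the SWI/SNF subunit whose loss defines rhabdoid tumours, held 0 and 0 reads in the dTAG47 libraries and 0 and 2 in the DMSO libraries. The row for MYC had 98.6 and 70.3 CPM with dTAG47, against 95.9 and 72.1 CPM with DMSO. The groups overlapped, and the log2 change was 0.01 ± 0.20 (SE, n = 2 each). The reads of this row cannot be divided between the lentiviral copy and any remnant of the native locus, and dTAG47 acts on the protein, so the row does not check the labels. CRBN, a ubiquitin ligase substrate receptor, had 51.9 and 46.2 CPM with dTAG47, against 48.8 and 51.7 CPM with DMSO.

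Several genes named below hold the E-box in the 200 bases upstream of the row's start, among them PLD6, HSPD1, DHODH, PPAT, LDHA and MAX. The sequences that follow are promoter stretches of 5 others named below that also hold it there. They are from GRCh37 (hg19), read 5′ to 3′ on the strand of the gene, with CACGTG in capitals. For ECE2 and SLC7A5, MYC ChIP-seq of both DMSO libraries had a peak region centred within 1000 bases of the start. SRM had a region in one of these libraries, and TERT and CCNG2 had none. The first 4 genes were lower after dTAG47 and CCNG2 was higher, by the test described below.
ECE2, chr3:183967337-183967415, plus strand: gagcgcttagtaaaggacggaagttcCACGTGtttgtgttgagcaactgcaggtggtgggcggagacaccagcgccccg
SLC7A5, chr16:87903191-87903290, minus strand: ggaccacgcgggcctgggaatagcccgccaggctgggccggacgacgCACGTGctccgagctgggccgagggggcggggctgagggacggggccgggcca
SRM, chr1:11120222-11120291, minus strand: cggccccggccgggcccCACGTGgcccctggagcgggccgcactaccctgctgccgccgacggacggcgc
TERT, chr5:1295294-1295362, minus strand: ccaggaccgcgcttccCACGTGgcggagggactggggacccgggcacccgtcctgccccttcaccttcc
CCNG2, chr4:78078283-78078356, plus strand: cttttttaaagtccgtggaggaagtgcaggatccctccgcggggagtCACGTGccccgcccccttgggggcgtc
The motif begins 82 bases before the start in ECE2, 143 in SLC7A5, 183 in SRM, 184 in TERT and 27 in CCNG2. CACGTG, which reads the same on both strands, lay in this window in 6.09% of all 20582 rows.

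Across genes the response was small for most rows and went in both directions. The median log2 change (dTAG47 over DMSO) of the 13397 tested rows was 0.02. In the comparison without a block, edgeR's quasi-likelihood test with Benjamini-Hochberg adjustment called 0 rows higher (0%) and 0 rows lower (0%) at a threshold of 0.05, and the smallest adjusted p was 0.274. At an unadjusted p under 0.05 there were 505 higher rows (3.77%) and 793 lower rows (5.92%). The DESeq2 Wald test without a block called 6 rows higher and 61 lower, and limma voom called none. Leaving out 1 library, so that the lone library of its group is assumed to vary like the other group, gave 35 lower and 2 higher rows without dTAG47 number 1 and 27 and 4 without dTAG47 number 2. It gave 5 lower and 0 higher without DMSO number 1 and 38 and 6 without DMSO number 2. With only 2 libraries in each group, an exact permutation test of a single gene cannot give a two-sided p below 0.333.

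When the replicate number entered the same edgeR test as a block, 2226 rows were higher (16.6%) and 2134 were lower (15.9%), which is 32.5% of rows in all. All 793 lower and all 505 higher rows at the unadjusted threshold without the block were among them, with the same signs. The called changes were mostly modest, with a median log2 change of -0.27 in rows called lower and 0.23 in rows called higher. Only 27 rows fell by at least 1 on the log2 scale and 29 rose by as much. At a bound of 0.5 these counts were 277 and 194. Among rows called with the block, 1657 lower rows and 1554 higher rows also had every dTAG47 library on one side of both DMSO libraries. Over all tested rows, called or not, this held for 2591 lower rows (19.3%) and 2758 higher rows (20.6%). Calls and overlap come from the same 4 libraries and are not independent. The biological coefficient of variation was 3.13% with the block and 12.6% without it. With the block only 1 residual degree of freedom is left, and almost all of the spread is taken from all rows together. The very small p-values of that fit thus treat rows as if they were replicates. The labels do not say whether a number marks a shared culture or day, so that whether the block is the right model was not tested. In what follows, "called", "rose" and "fell" refer to the fit with the block, and the log2 change with its SE is that of the fit without it unless stated.

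**Figure D1:**
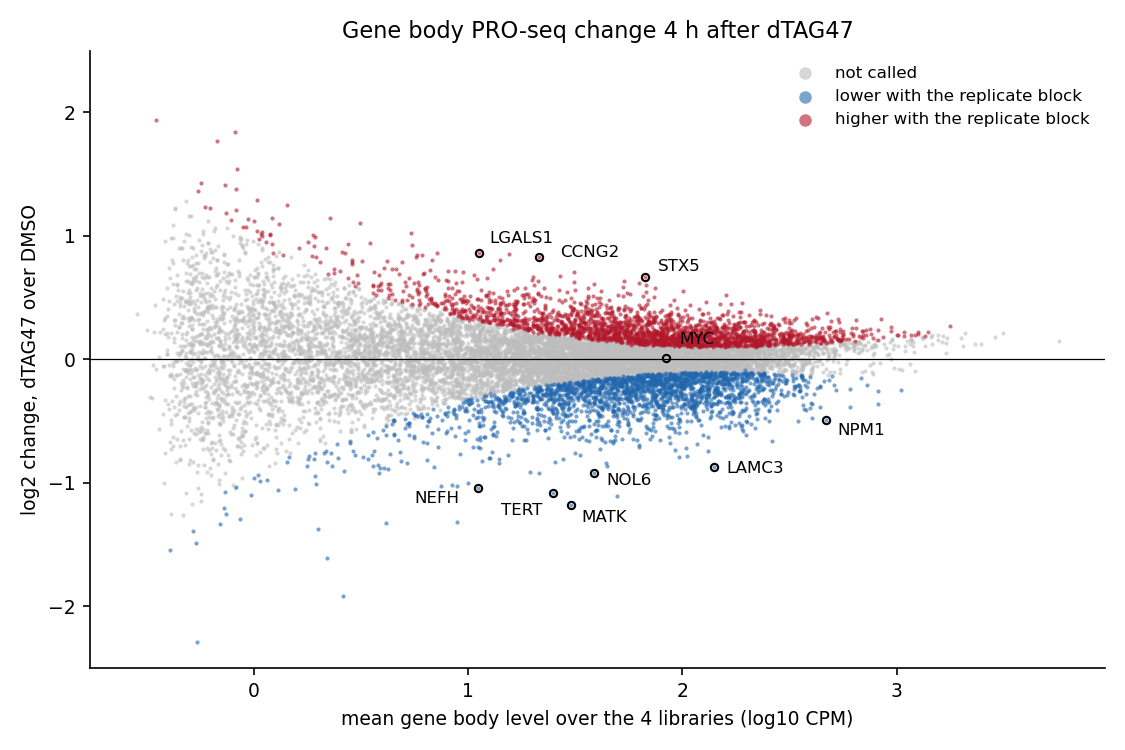
Each point is 1 of the 13397 tested rows, with its mean level on a log10 axis and its log2 change of gene body counts (dTAG47 over DMSO, without the block) on the vertical axis. Blue and red mark the 2134 lower and 2226 higher rows called with the replicate block, most of which lie within 0.5 of the line at 0.

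The change was similar in the pairs of libraries that carry the same number. Pearson's r between the log2 change of number 1 and that of number 2 was 0.75 over the 10597 rows with a mean of at least 100 reads and 0.53 over all tested rows, given as a description across genes, which are not independent replicates. Of the 219 such rows at or below -0.5 in number 1, 215 were also negative in number 2 (98.2%), with a median of -0.53 there. Of the 124 rows at or above 0.5 in number 1, 117 were positive in number 2 (94.4%), with a median of 0.45. Libraries of the same treatment lay further apart than libraries of the same number. The SD over rows of the log2 difference was 0.256 between the dTAG47 libraries and 0.265 between the DMSO libraries, against 0.217 between dTAG47 and DMSO number 1 and 0.233 between those of number 2.

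**Figure D2:**
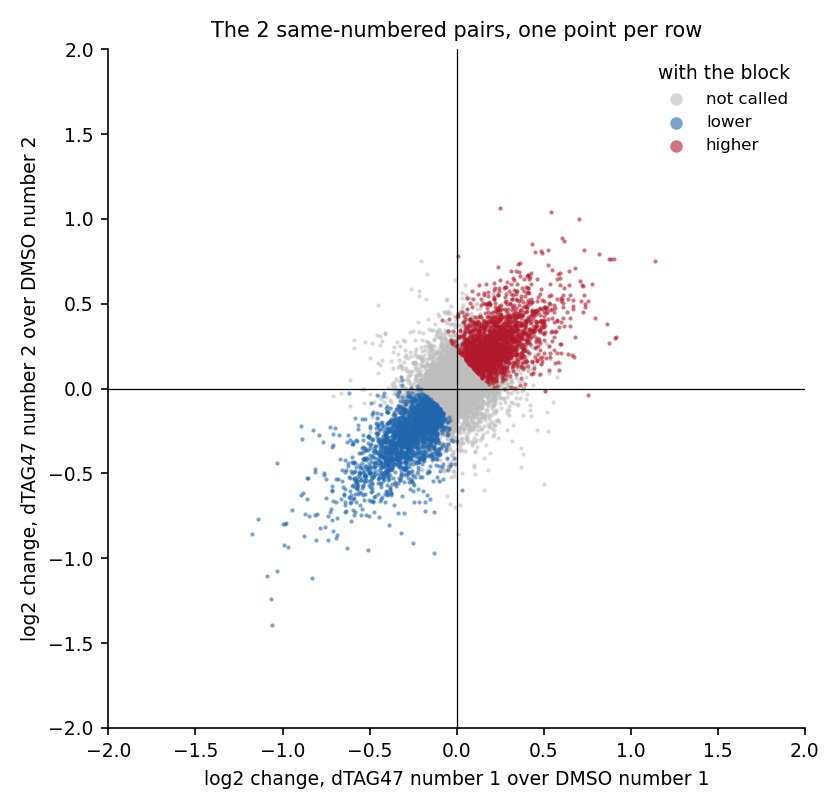
Each point is a row with a mean of at least 100 reads, placed by its log2 change of dTAG47 over DMSO in the libraries numbered 1 (horizontal) and numbered 2 (vertical). Blue rows (lower) and red rows (higher with the block) fill the lower left and upper right, and r over the 10597 rows was 0.75.

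The rows with the smallest unadjusted p among those that were lower in both dTAG47 libraries than in both DMSO libraries included LAMC3, a laminin chain of basement membranes. LAMC3 had 100 and 98 CPM with dTAG47, against 184 and 179 CPM with DMSO. Its log2 change was -0.87 ± 0.08, with an unadjusted p of 4.09e-05, an adjusted p of 0.274 without the block and 2.05e-82 with it. MATK, a non-receptor tyrosine kinase that inhibits Src-family kinases, had 18.3 and 18.8 CPM with dTAG47, against 38.8 and 45.0 CPM with DMSO, a log2 change of -1.18 ± 0.13. The MATK row begins 2212 bases downstream of ZFR2 on the same strand, which was at -0.03 with the block. ECE2, a metalloprotease that processes peptides, had 30.9 and 32.3 CPM with dTAG47, against 59.9 and 53.4 CPM with DMSO, a log2 change of -0.84 ± 0.11. In these 3 genes the dTAG47 libraries lay close to each other and far below both DMSO libraries. MPP6, a scaffold protein of the membrane, and TPCN1, a lysosomal cation channel, followed at -0.73 and -0.61. The smallest unadjusted p, 3.04e-05, was that of the non-coding row LOC100499227, which had 31.6 and 31.1 CPM with dTAG47, against 68.0 and 67.7 CPM with DMSO (-1.11). C16orf73 was at -0.79. The rows of LOC100499227, C16orf73 and ECE2 overlap THY1, FAHD1 and CAMK2N2 on the opposite strand, and the sources used here do not say whether the counting used strand. The same limit holds for TRAP1, MYBBP1A, HSPD1, URB1, ABCE1, MAT2A, MRPS25, NPC1 and MAX, named below, which also overlap rows on the opposite strand.

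The deepest falls with at least 200 reads on average included TERT, the catalytic subunit of telomerase and a known MYC target. TERT had 13.6 and 18.3 CPM with dTAG47, against 28.3 and 39.2 CPM with DMSO, a log2 change of -1.08 ± 0.22. Its adjusted p was 0.409 without the block and 1.93e-33 with it. NEFH, a neurofilament subunit, had 5.64 and 9.0 CPM with dTAG47, against 13.4 and 16.7 CPM with DMSO, a log2 change of -1.04 ± 0.27. PLD6, a phospholipase of the mitochondrial surface, had 15.8 and 13.7 CPM with dTAG47, against 31.8 and 24.2 CPM with DMSO, a log2 change of -0.92 ± 0.18. JAG2, a ligand of Notch receptors, had 11.1 and 15.9 CPM with dTAG47, against 22.6 and 28.1 CPM with DMSO. None of these groups overlapped. CARD9, an adaptor of innate immune signalling, had 6.72 and 6.62 CPM with dTAG47, against 13.6 and 13.1 CPM with DMSO. Its row begins 1896 bases downstream of SNAPC4 on the same strand, which was itself at -0.38 with the block.

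The 8 largest rises with at least 200 reads on average were smaller than the 8 deepest falls. They were LGALS1, TLCD2, CCNG2, LIMS2, NYNRIN, PNPLA8, ZSWIM4 and PPP2R2C, and ran up to 0.86 on the log2 scale. STX5, CYTH2, MAP1A, ZFYVE1 and CEP70 are not among them and were named for a small unadjusted p without the block. STX5, a SNARE protein of transport between the endoplasmic reticulum and the Golgi, had 82.4 and 81.1 CPM with dTAG47, against 49.6 and 53.2 CPM with DMSO. Its log2 change was 0.67 ± 0.09, with an unadjusted p of 0.000425, an adjusted p of 0.389 without the block and 5.39e-36 with it. LGALS1, which encodes galectin 1, had 15.4 and 13.7 CPM with dTAG47, against 8.16 and 7.87 CPM with DMSO, a log2 change of 0.86 ± 0.17. CCNG2, an atypical cyclin linked to cell cycle arrest, had 21.9 and 33.1 CPM with dTAG47, against 11.6 and 19.3 CPM with DMSO, a log2 change of 0.83 ± 0.30. In CCNG2 the groups did not overlap, but the library numbered 2 was higher in both treatments. Other rises were in CYTH2, an exchange factor for ARF GTPases (0.62), MAP1A, a microtubule-associated protein (0.63), PNPLA8, a phospholipase (0.71), ZFYVE1, a phosphoinositide-binding protein of autophagosome formation (0.61), and CEP70, a centrosomal protein (0.51). LIMS2, a focal adhesion protein, was at 0.81 and overlaps GPR17 on the opposite strand. TLCD2 was at 0.85 and begins 1136 bases downstream of MIR22HG, which was at 0.48 with the block. STX5 begins 820 bases downstream of WDR74 and CYTH2 3098 bases downstream of KCNJ14, on the same strands. These neighbours were at -0.27 and -0.25 with the block. NYNRIN, at 0.73, rose in both pairs although its groups overlapped, with 10.8 and 21.7 CPM with dTAG47, against 6.54 and 13.1 CPM with DMSO.

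**Figure D3:**
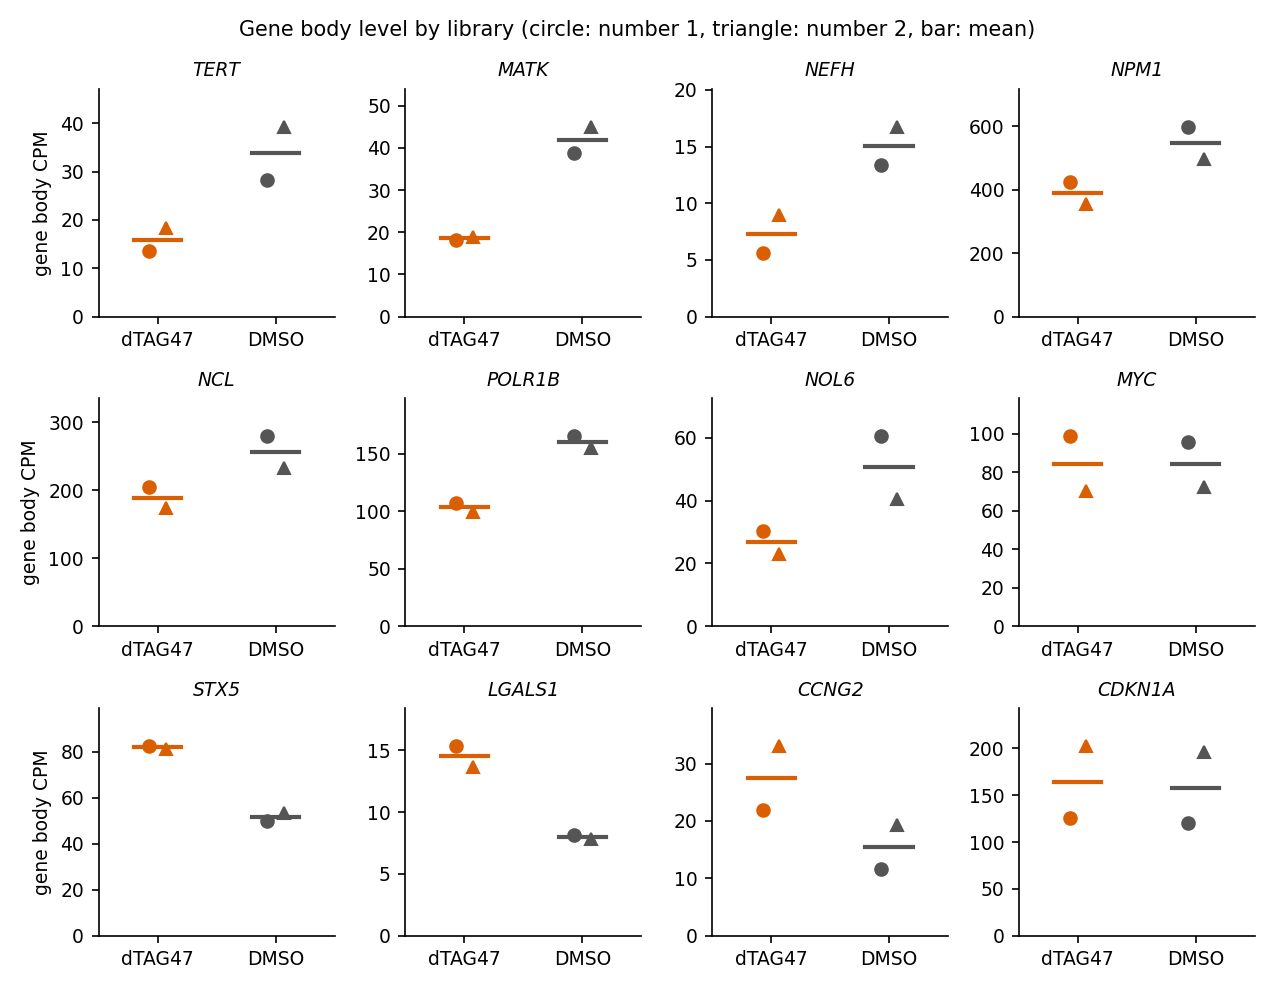
Gene body CPM of 12 genes in each library, with dTAG47 left of DMSO, circles for number 1, triangles for number 2 and bars for the mean of 2 libraries. The groups do not overlap for TERT, MATK, NEFH, NPM1, NCL, POLR1B, NOL6, STX5, LGALS1 and CCNG2, while MYC and CDKN1A differ more between numbers than between treatments.

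Genes known as MYC targets moved down together. Of 54 tested members of a list of canonical MYC targets, 49 were called lower and 0 higher, against 15.9% and 16.6% of all rows. Without the block, 35 of the 54 had an unadjusted p under 0.05 and were lower, and in 46 the groups did not overlap with dTAG47 lower, against 19.3% of all rows. The list's median log2 change was -0.47, and leaving out 1 library at a time gave medians between -0.61 and -0.34. MYBBP1A, a nucleolar MYB-binding protein, had 86.5 and 67.8 CPM with dTAG47, against 153 and 114 CPM with DMSO, a log2 change of -0.79 ± 0.18. SORD, sorbitol dehydrogenase, was at -0.68, and HSPD1, the mitochondrial HSP60 chaperonin, at -0.62. NCL, which encodes nucleolin and is not on this list, had 205 and 173 CPM with dTAG47, against 279 and 232 CPM with DMSO. Its log2 change was -0.44 ± 0.13. NPM1, a nucleolar protein that chaperones histones and ribosomal particles, had 423 and 354 CPM with dTAG47, against 598 and 496 CPM with DMSO, a log2 change of -0.49 ± 0.13. ODC1, CAD and LDHA are not on the list of canonical MYC targets either. ODC1, the first enzyme of polyamine synthesis, was at -0.38, and CAD, which starts pyrimidine synthesis, at -0.26. LDHA, lactate dehydrogenase A, had 200 and 177 CPM with dTAG47, against 232 and 183 CPM with DMSO. Its groups overlapped, and its log2 change was -0.14 ± 0.14, with an adjusted p of 0.0125 with the block. The members of the canonical list that were not called included MCM5 (-0.02), PLK4 (0.09), PLK1 (0.10) and MAP3K6 (0.16). Its deepest member was DUSP2, a nuclear phosphatase of MAP kinases (-1.32). These last 5 were chosen after their values were seen. DUSP2 is not among the 8 deepest falls with at least 200 reads on average.

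Genes of ribosome production were mostly lower, from RNA polymerase I subunits to the ribosomal proteins. Over all rows the shares were 15.9% called lower and 16.6% called higher. Of 79 tested ribosome biogenesis factors, 63 were called lower (79.7%) and 0 higher, with a median log2 change of -0.35. NOL6, a factor of early small-subunit assembly, had 30.3 and 23.1 CPM with dTAG47, against 60.4 and 40.6 CPM with DMSO, a log2 change of -0.92 ± 0.23. URB1, a factor of large-subunit assembly, was at -0.66 and WDR36, another small-subunit factor, at -0.56. Among 32 genes of RNA polymerases I and III and their factors, 20 were called lower (62.5%) and 2 higher (6.25%). Their median was -0.23 (-0.13 without dTAG47 number 2 and -0.13 without DMSO number 1). POLR1B, the second largest subunit of RNA polymerase I, had 108 and 99.1 CPM with dTAG47, against 165 and 155 CPM with DMSO, a log2 change of -0.63 ± 0.09. POLR3G, a subunit of RNA polymerase III, was at -0.65. Of 68 tested genes for cytosolic ribosomal proteins, 64 were called lower (94.1%) and 0 higher, and the fitted change was negative in all 68. Their median was -0.31, and -0.20 without DMSO number 1. RPLP2, an acidic protein of the ribosomal stalk, had 59.3 and 58.7 CPM with dTAG47, against 90.5 and 82.5 CPM with DMSO, a log2 change of -0.55 ± 0.10. The sources used here do not say how reads that match several places were treated, which bears on ribosomal protein genes, NPM1, HSPD1 and LDHA, since these have processed pseudogenes.

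Lists of protein synthesis and folding had more members called lower than higher. The shares over all rows were 15.9% lower and 16.6% higher. Of 45 translation factors, 32 were called lower (71.1%) and 0 higher. Their median was -0.22 (-0.14 without dTAG47 number 2 and -0.14 without DMSO number 1). EIF4EBP1, a repressor of cap-dependent translation and thus of opposite action to most of the list, was its leading member at -0.59. ABCE1, a ribosome recycling factor, was at -0.38. Of 28 cytosolic chaperones, 20 were called lower (71.4%) and 1 higher (3.57%). Their median was -0.20 (-0.35 without dTAG47 number 1 and -0.14 without DMSO number 1). FKBP4, a co-chaperone of HSP90, had 53.2 and 42.8 CPM with dTAG47, against 81.2 and 74.1 CPM with DMSO, a log2 change of -0.69 ± 0.13. Of 27 genes for mitochondrial import and chaperones, 22 were called lower (81.5%) and 0 higher, with a median of -0.28. TRAP1, the mitochondrial HSP90, had 158 and 149 CPM with dTAG47, against 235 and 224 CPM with DMSO, a log2 change of -0.58 ± 0.08. Of 68 genes for mitochondrial ribosomal proteins, 31 were called lower (45.6%), 0 higher and 37 were not called. Their median was -0.21 (-0.13 without dTAG47 number 2), and MRPS25 was at -0.42.

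Metabolic lists were mixed in direction but had more members called lower than higher. Shares over all rows were 15.9% lower and 16.6% higher. Nucleotide synthesis had 17 members lower (58.6%) and 2 higher (6.9%) of 29, with a median of -0.24. DHODH, which makes orotate for pyrimidines, had 34.1 and 27.7 CPM with dTAG47, against 55.1 and 47.5 CPM with DMSO, a log2 change of -0.73 ± 0.15. GART and PPAT, enzymes of purine synthesis, were at -0.46 and -0.42. Serine and one-carbon metabolism had 13 members lower (59.1%) and 2 higher (9.09%) of 22. The lower ones included MTRR, which reactivates methionine synthase (-0.44). Glycolysis had 12 members lower (60.0%) and 2 higher (10.0%) of 20. It was led by HK2, a hexokinase, which had 106 and 90.4 CPM with dTAG47, against 144 and 133 CPM with DMSO (-0.50 ± 0.11). The median of glycolysis was -0.17, and -0.10 without dTAG47 number 2 or without DMSO number 1. Polyamine and S-adenosylmethionine genes were split, with 8 lower (44.4%, against 15.9% of all rows) and 4 higher (22.2%, against 16.6%) of 18. Their median was -0.05 (-0.15 without dTAG47 number 1, -0.08 without DMSO number 1 and -0.09 without DMSO number 2). The lower ones included SRM, spermidine synthase (-0.63), AHCY, which removes S-adenosylhomocysteine (-0.48), and MAT2A, which makes S-adenosylmethionine (-0.44).

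The MYC network and the cell cycle were described by 4 lists. MAX, the dimer partner of MYC, had 115 and 112 CPM with dTAG47, against 141 and 137 CPM with DMSO, a log2 change of -0.29 ± 0.08. Of 24 members of the MYC network, 11 were called lower (45.8%, against 15.9% of all rows) and 3 higher (12.5%, against 16.6%). Their median was -0.13 (-0.08 without DMSO number 1). RUVBL1, a chromatin-remodelling ATPase, was at -0.37 and SIN3A, a corepressor scaffold, at 0.30. Of 47 DNA replication genes, 16 were called lower (34.0%) and 2 higher (4.26%). Their median of -0.10 ranged from -0.17 without dTAG47 number 1 to -0.02 without DMSO number 1. Of 23 G1 cyclins and E2Fs, 8 were called lower (34.8%, against 15.9% of all rows) and 3 higher (13%, against 16.6%), with a median of -0.02. Among 7 CDK inhibitors, which arrest the cell cycle, only CDKN1B was called, at 0.18 and with an adjusted p of 0.0353 with the block. That is 14.3% higher, against 16.6% of all rows. CDKN1A, which encodes p21 and is often described as repressed by MYC, had 126 and 203 CPM with dTAG47, against 120 and 196 CPM with DMSO. Its log2 change was 0.05 ± 0.30, with an adjusted p of 0.346 with the block, and the libraries numbered 2 were the high ones in both treatments. SMARCA4, the SWI/SNF ATPase, was at 0.05 ± 0.08 and was not called. CCND2, a G1 cyclin described as a MYC target, was at 1.08 and 0.828 CPM with dTAG47, against 0.785 and 0.952 CPM with DMSO.

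Lists for stress, early signalling and elongation are set here beside the shares over all rows, 15.9% lower and 16.6% higher. Of 29 immediate early genes, 2 were called lower (6.90%) and 4 higher (13.8%). Of 27 p53 targets, 5 were called lower (18.5%) and 6 higher (22.2%). Of 24 genes of the integrated stress response, 5 were called lower (20.8%) and 4 higher (16.7%). The p53 and stress response shares lie near those of all rows. In the stress response list SLC7A5 and SLC7A1, amino acid transporters, were at -0.48 and -0.35. Of 36 genes of transcription elongation and pausing, 2 were called lower (5.56%) and 6 higher (16.7%), the higher share being that of all rows. POLR2A, the largest subunit of RNA polymerase II, was at 0.23, and HEXIM1, an inhibitor of the elongation factor P-TEFb, had 125 and 135 CPM with dTAG47, against 117 and 122 CPM with DMSO (0.12 ± 0.09).

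More members were called higher than lower in lists of membrane, matrix and lysosomal genes. Over all rows 16.6% were called higher and 15.9% lower. Of 24 cholesterol synthesis genes, 12 were called higher and 1 lower, with a median of 0.13. SREBF2, the transcription factor that drives this pathway, had 267 and 257 CPM with dTAG47, against 208 and 188 CPM with DMSO, a log2 change of 0.40 ± 0.09. In this list only 5 of the 24 members were higher without overlap, against 20.6% of all rows. Its median was -0.07 without dTAG47 number 1, 0.25 without dTAG47 number 2, 0.20 without DMSO number 1 and 0.02 without DMSO number 2. Of 26 genes of extracellular matrix and adhesion, 12 were called higher and 0 lower, with a median of 0.15. COL6A2, a collagen chain, had 20.5 and 21.5 CPM with dTAG47, against 14.7 and 14.6 CPM with DMSO, a log2 change of 0.52 ± 0.13. Without dTAG47 number 2 this list's median was 0.08, and without DMSO number 2 it was 0.23. Of 34 genes of lysosome and autophagy, 12 were called higher and 2 lower, with a median of 0.09. They included ULK1, the kinase that starts autophagy (0.43), WIPI1, a protein of autophagosome formation (0.50), and NPC1, a lysosomal cholesterol transporter (0.32). That median was 0.02 without dTAG47 number 1 and 0.02 without DMSO number 2. Of 13 tested interferon response genes, 4 were called higher (30.8%) and 1 lower (7.69%). STAT2, a transcription factor of interferon signalling, had 25.5 and 23.1 CPM with dTAG47, against 16.8 and 14.2 CPM with DMSO, a log2 change of 0.64 ± 0.15. DDX58, a sensor of viral RNA, was at 0.55. Its list's median, 0.15 with all libraries, was 0.02 without dTAG47 number 2 and 0.27 without DMSO number 2.

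Markers of other cell kinds had few tested members. Their counts are set beside the shares over all rows, 15.9% lower and 16.6% higher. Of 16 kidney epithelial markers 8 were tested, with 1 called higher (12.5%) and 0 lower. Of 12 haematopoietic markers 3 were tested, and none was called. Of 13 neuronal markers 5 were tested, with 2 called higher (40%). Of 14 mesenchymal markers 10 were tested, with 2 called higher (20%) and 3 lower (30%).

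**Figure D4:**
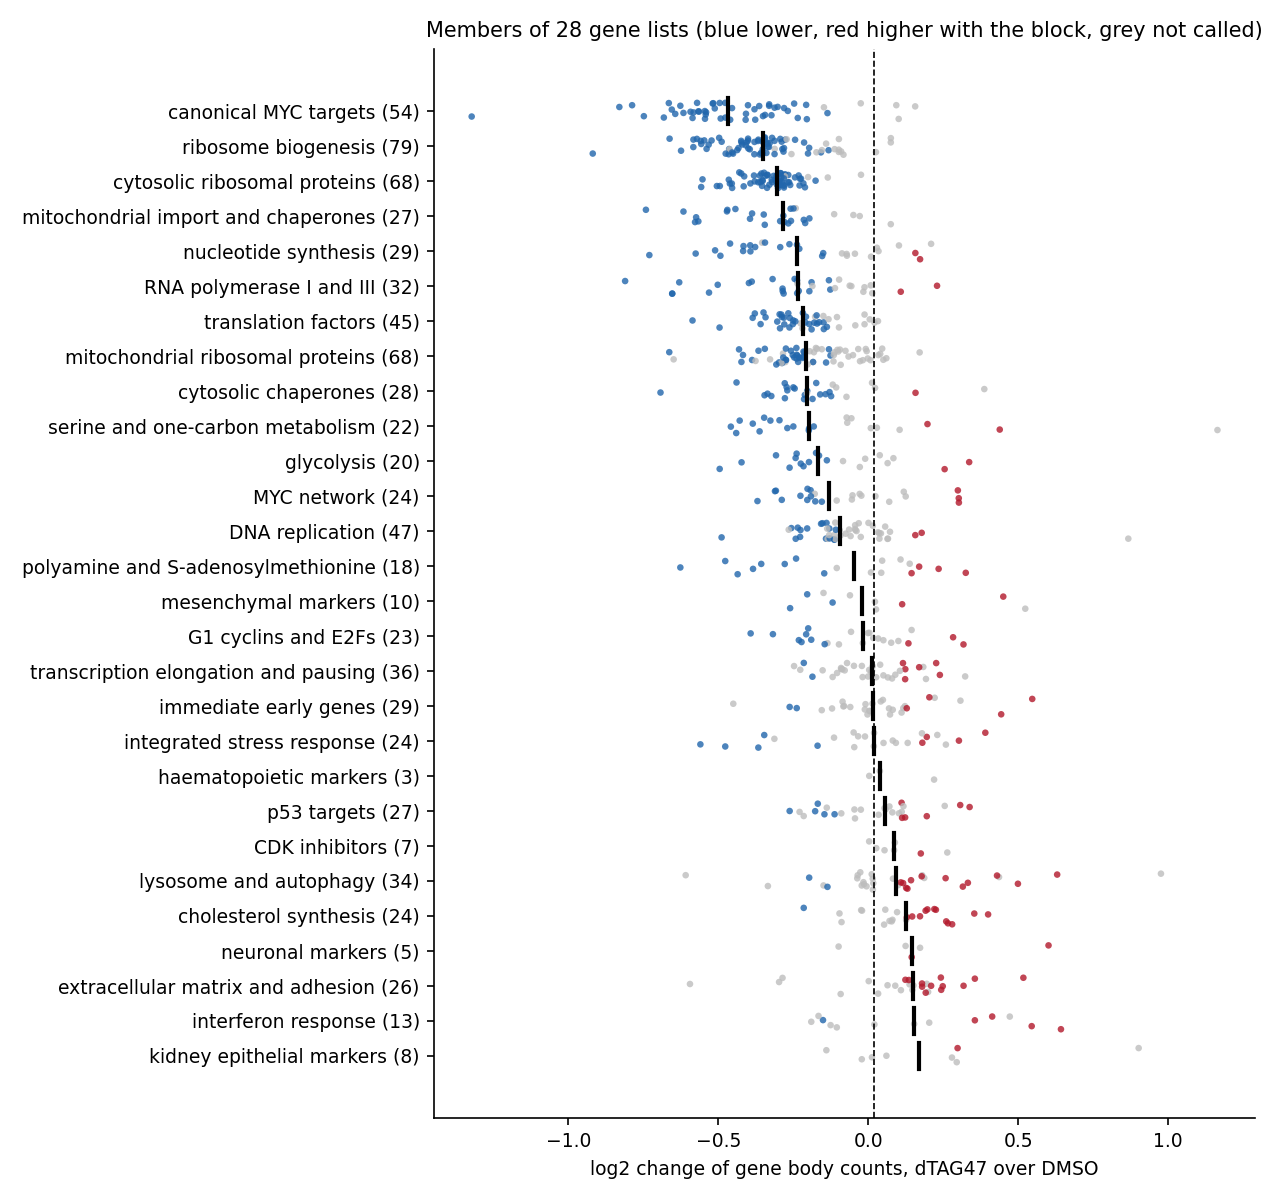
Log2 change of gene body counts (dTAG47 over DMSO, without the block) for each tested member of 28 gene lists, with the number tested in brackets, a black bar at the list's median and a dashed line at the median of all rows, 0.02. The growth lists at the top lie left of the line (canonical MYC targets at -0.47), and the lists with most red members, such as cholesterol synthesis at 0.13, lie right of it.

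The share of rows called lower was set beside MYC occupancy at the start. Of 948 tested rows with a MYC peak region in both DMSO ChIP-seq libraries within 1000 bases of the start, 530 were called lower (55.9%) and 44 higher (4.64%), with a median log2 change of -0.19. Of 2104 rows with a region in one of those libraries, 628 were lower (29.8%) and 223 higher (10.6%), with a median of -0.05. Of 10345 rows with none, 976 were lower (9.43%) and 1959 higher (18.9%), with a median of 0.05. Within the 948 rows the share called lower was 43.5% in the class with the lowest authors' peak scores, 59.1% in the middle class and 64.7% in the highest class. The ChIP-seq libraries are not those of the PRO-seq, and these shares describe the rows without a test between them.

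Rows with a region in both libraries also had a higher median level in DMSO (RPKM of 3.72, CPM per kilobase of gene body) than rows with none (1.08), and a shorter median span (22071 against 30692 bases). The shares were therefore set side by side within classes. The DMSO level that sets the level classes also enters the log2 change, so a trend across those classes is not independent of it. In the class with the highest DMSO level per kilobase, 65.4% of 612 rows with a region in both libraries were called lower, against 20.0% of 1832 rows with none. The medians were -0.24 and -0.02. In the next class down, 46.8% of 218 rows with a region were lower, against 12.1% of 2434 with none. In the second lowest class the shares were 26.9% of 93 rows and 7.54% of 2866, with medians of -0.02 and 0.08. In the lowest class, where only 25 rows had a region, they were 12% and 3.08%. By gene span, the share lower was 60.5% with a region and 8.66% with none under 10 kb, and 30.9% with a region and 5.38% with none over 100 kb. The share higher was 0.76% with a region and 5.41% with none under 10 kb, and 14.9% and 31.0% over 100 kb. The share called lower was larger with a region than with none in each of these classes. Rows with a region also had more reads in each of them. The median count was 678.75 with a region and 143.5 with none under 10 kb, and 5174 and 1473 over 100 kb. The part of read depth in these shares was not tested.

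**Figure D5:**
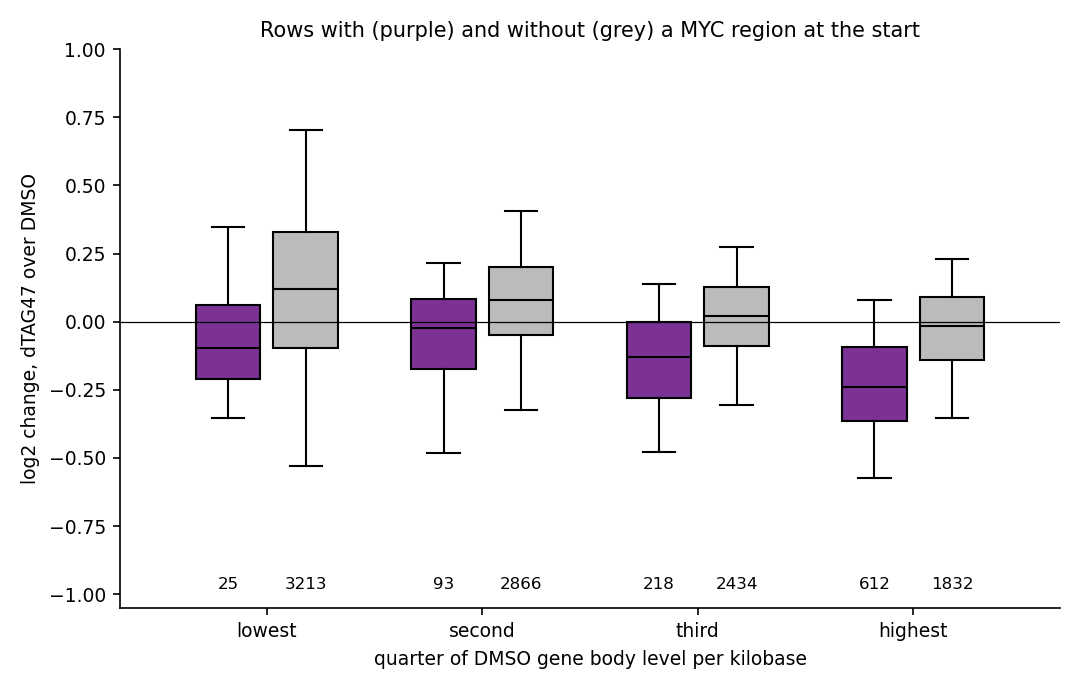
Log2 change of gene body counts (dTAG47 over DMSO, without the block) in 4 classes of DMSO level per kilobase, with rows that have a MYC region in both DMSO ChIP-seq libraries (purple) left of rows with none (grey). Boxes give the median and interquartile range, whiskers the 5th to 95th percentiles and numbers the count of rows, and the purple median is lowest, at -0.24, in the highest class. Classes and changes share the DMSO libraries and are not independent.

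The E-box was counted upstream of each row as a description. CACGTG lay in the 200 bases upstream of 10.5% of the 2134 rows called lower, 5.44% of the 2226 called higher and 6.47% of the rows not called, against 6.94% of all tested rows. Among rows with a MYC region in both DMSO libraries the shares were close, since 58.4% of the 137 with the motif were called lower and 55.5% of the 811 without it. Among rows with no region, these shares were 13.9% of 582 and 9.17% of 9763. Of the genes whose promoters are printed above, ECE2 had an authors' peak score of 169, and 1 dTAG47 ChIP-seq library still had a peak there. SLC7A5 had a score of 42 and a peak in none of the dTAG47 libraries.

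The balance of lower and higher rows differed with gene span. Of 2814 rows under 10 kb, 17.4% were called lower and 4.66% higher, with a median of -0.06. Of 3929 rows of 10 to 30 kb, 18.4% were lower and 12.8% higher. Of 4260 rows of 30 to 100 kb, 17.2% were lower and 21% higher. Of 2394 rows over 100 kb, 7.89% were lower and 29.3% higher, with a median of 0.10. The median count per row was 200.4 reads in the shortest class and 2177 in the longest, and few rows with under 100 reads were called in either direction (2.43% lower and 3.07% higher). The part of read depth in the difference between spans was not tested.

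The steady-state mRNA of the same line at 24 h, measured by RNA-seq in separate libraries, was set beside the gene body change. In that comparison (3 dTAG47 and 3 DMSO libraries, edgeR's quasi-likelihood test) 595 genes were lower (4.44%) and 572 higher (4.27%). Of 1933 rows called lower in gene bodies whose mRNA was tested, 434 had lower mRNA and 2 had higher mRNA, with a median mRNA log2 change of -0.22. Of 2051 rows called higher in gene bodies, 296 had higher mRNA and 1 had lower mRNA, with a median of 0.21. TERT mRNA was at -1.15 (adjusted p 0.00143), MATK mRNA at -1.16 (0.000278), LAMC3 mRNA at -0.68 (0.00507) and LGALS1 mRNA at 0.73 (0.00156), all on the log2 scale with edgeR. For STX5 (0.25, adjusted p 0.0967), NCL (-0.36, 0.202) and SREBF2 (-0.06, 0.699) the mRNA change did not pass the threshold. Promoter-proximal reads of the same PRO-seq libraries, which count polymerases near the start, had a median log2 change of -0.19 in 1951 rows called lower in gene bodies and 0.16 in 1872 rows called higher. In edgeR's test without the block, 0 of 10226 promoter-proximal rows passed the threshold. The promoter-proximal values come from the same 4 libraries and are not independent of the gene body values.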

How the data were processed

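PRO-seq gene body counts of 4 libraries (2 with dTAG47, 2 with DMSO, grouped by the labels) were the measurement. The authors deposited whole-number read counts per row for gene bodies and promoter-proximal regions, and a gene body density (a signal, count over length), used here only to obtain that length. For RNA-seq the authors deposited raw counts per gene. Each MYC ChIP-seq library has its own deposited peak list, with a score per peak. The submitters' processing notes name cutadapt, Bowtie2, STAR, featureCounts, MACS2, DiffBind and DESeq2 and the build hg19, without versions or roles. Use of a spike-in, the strand setting and the handling of reads that match several places are not stated there. ATAC-seq and IgG libraries were not analysed here, and FKBP1A was not analysed here. Row starts were read as 1-based, since 7359 equal a GENCODE start on GRCh37.

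The test of gene body counts was edgeR 4.0.16 under R 4.3.3 (filterByExpr, TMM, quasi-likelihood F-test, two-sided, Benjamini-Hochberg adjustment, threshold 0.05), once without and once with the replicate number as a block. The fit leaves 2 residual degrees of freedom without the block and 1 with it. Without the block it takes part of its spread from all rows together. With the block it takes almost all of its spread from them. SE is the log2 change divided by the root of F. CPM uses TMM-scaled totals of the tested rows. RNA-seq was fitted over all 12 libraries. The scripts were run on simulated data with a replicate effect built in, to check that the changes put in came back. That run cannot show whether the block is the right model for these libraries. Alternatives were DESeq2 1.42.0, limma voom 3.58.1, other scalings and filters, 1 row per gene, and each library left out. Robust estimation, the newer edgeR method and a test against a 1.2-fold change were added after seeing the data.

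Named genes were, first, the 8 higher and 8 lower rows with the smallest unadjusted p without the block, at least 100 reads on average and no overlap of groups. Second came the 8 largest rises and falls called with the block in both pairs, with at least 200 reads on average. Next came up to 3 members per list with the smallest p with the block, and last a fixed set (MYC, MAX, SMARCB1, SMARCA4, CDKN1A, NCL, NPM1, ODC1, LDHA, TERT, CAD, CCND2, CRBN and HEXIM1). The row with the highest mean count stood for a gene with several. Lists can share members. The members, the 28 gene lists and these rules were chosen with earlier results of these data known.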

Additional observations from a re-analysis of the deposited data

How the results depend on the processing

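The count of calls depends on the block. Without it the counts were 0 higher and 0 lower, with it 2226 and 2134. Without the block, DESeq2 called 6 higher and 61 lower, no filter on low counts gave 2 lower, and leaving out each library gave 0 to 6 higher and 5 to 38 lower, all among the rows called with the block and with the same sign. With the block, DESeq2 called 495 higher and 815 lower, and the test against a 1.2-fold change called 144 and 358. Lower rows were 48.9% of calls with the block, 62.2% with DESeq2 and 71.3% with the 1.2-fold test. Other scalings, filters, limma voom and robust or newer estimation with the block kept 3596 to 4350 of the 4360 calls. Of the named genes called with the block, 16 were not called by DESeq2 and 44 by the 1.2-fold test. Same-numbered libraries deviated together from their group means (r = 0.81 over rows), but 2 pairs do not show that the numbers pair the samples, and the cause was not tested.

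List medians (log2) that moved beyond the spread between libraries when 1 library was left out ranged from -0.50 to -0.25 for ribosome biogenesis, -0.353 to -0.162 for nucleotide synthesis, -0.152 to -0.0525 for polyamine genes, -0.283 to -0.16 for serine and one-carbon genes, -0.276 to -0.131 for mitochondrial ribosomal proteins, -0.347 to -0.136 for cytosolic chaperones, -0.147 to -0.0764 for the MYC network and -0.0997 to -0.00576 for G1 cyclins and E2Fs. They ranged from 0.0975 to 0.249 for CDK inhibitors, 0.0793 to 0.231 for matrix genes, 0.0215 to 0.274 for interferon genes, 0.0155 to 0.167 for lysosome genes, -0.0483 to 0.0114 for elongation genes, 0.0894 to 0.146 for kidney, 0.0277 to 0.217 for haematopoietic, -0.117 to 0.469 for neuronal and -0.0392 to 0.0435 for mesenchymal markers. With library totals the medians were -0.222 (serine), -0.158 (MYC network), -0.0423 (G1 cyclins) and 0.0193 (haematopoietic), and with the block -0.109 (MYC network) and 0.00586 (haematopoietic).

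Named genes that changed sign were not all near 0, and without the block no row at all was called. With the block, NR4A3 (0.55 without it) and MVK (0.27) were called higher and LDHA (-0.14) lower. Each of these changed sign when 1 library was left out. CD68 was at -0.00426 with DESeq2 size factors, -0.0186 with library totals, -0.00074 without the filter and -0.00434 with DESeq2, and with the block -0.00177, -0.0144 and -0.00642 for size factors, totals and DESeq2. SPI1 was at -0.089 with limma voom and -0.00412 with the block, where it turned to 0.000697 with limma voom, 0.00991 with the newer method and 0.0389 without the block. MYC was at -0.0107 with library totals, and with the block -0.0014 with size factors, -0.014 with library totals and -0.00534 with DESeq2. With 1 library left out, values ranged from -0.00212 to 0.583 (CDKN2D), -0.337 to 0.45 (CDKN1A), -0.0929 to 1.25 (NR4A3), -0.013 to 0.476 (MVK), -0.138 to 0.889 (MUC1), -0.107 to 0.0774 (CD68), -0.645 to 0.495 (SPI1), -0.455 to 0.90 (ELAVL3), -0.28 to 0.23 (MYC), -0.0225 to 0.118 (SMARCA4), -0.299 to 0.0443 (LDHA), -0.0886 to 0.311 (CCND2) and -0.145 to 0.0400 (CRBN). The cause was not tested.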

Other observations

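Host genes of small nucleolar RNAs, whose introns carry the guides of ribosomal RNA modification, were looked at after their values were seen. Of 9 tested SNHG rows, 8 were called lower with the replicate block and 0 higher, against 15.9% and 16.6% of all rows, and 6 had an unadjusted p under 0.05 without it. Their median log2 change was -0.52, and 7 of the 9 had a MYC region of both DMSO libraries at the start. SNHG15 had 82.8 and 70.0 CPM with dTAG47, against 123 and 108 CPM with DMSO, a log2 change of -0.60 ± 0.12 (SE). SNHG6 had 74.2 and 61.2 CPM with dTAG47, against 114 and 95.8 CPM with DMSO (-0.63 ± 0.14). SNHG12 was at -0.40 and SNHG1 at -0.22. The rows of SNHG6, SNHG7 and SNHG12 overlap C8orf45, FAM69B and TRNAU1AP on the opposite strand. SNHG8 was the row not called, with 4.04 and 1.99 CPM with dTAG47, against 3.05 and 2.81 CPM with DMSO.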
